A study of Ovis aries with 14 samples.

Results

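Of the 15008 probes on an Agilent ovine expression array, 13 were named for 7 genes of the response to low oxygen and of glucose breakdown. The genes were the hypoxia factors HIF1A and EPAS1, the glucose transporter SLC2A3, and the enzymes HK1, ALDOA, GAPDH and LDHA. They are 7 of the 964 genes with a name on the array, and a probe was taken whenever its gene name, or the current symbol matched to it, was one of these. Each gene had 2 probes except HK1, which had 1. Probes are called here by the base of their source sequence at which they start, so that HIF1A probe 466 starts at base 466.

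The samples were hypothalami of fetal sheep at about 130 days of gestation, taken after 2 days of infusion with triclosan, an antibacterial phenol used in personal care products, or with vehicle. In the direct arm a catheterized fetus received triclosan intravenously at 250 µg per day (fetal triclosan, n = 4) or vehicle (fetal vehicle, n = 4). In the indirect arm the ewe received triclosan at 100 µg per kg per day (maternal triclosan, n = 3) or vehicle (maternal vehicle, 3 arrays deposited), and the hypothalamus of her fetus was measured. The arms therefore differ in dose as well as in the animal infused. Maternal vehicle replicate 3 equalled 0.6 times replicate 1 plus 0.4 times replicate 2 at all 15744 spots, so that group was counted as n = 2 and replicate 3 was left out, leaving 13 arrays. Each array held Cy3-labelled RNA of whole hypothalamus. Values are log2 signal minus the 75th percentile of the same array, so a value of 0 is the signal of that percentile, and they compare arrays for 1 probe, not probes with each other.

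HIF1A and EPAS1 are the oxygen-regulated subunits of transcription factors that pair with ARNT or ARNT2. When oxygen is at hand the subunits are hydroxylated and degraded, so their activity is set largely on the protein, which an RNA array does not measure. When stable they raise transcription of glucose transporters, of enzymes of glycolysis and of angiogenic genes. SLC2A3 is the main glucose transporter of neurons, and the enzymes carry glucose from its first phosphorylation to lactate.

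The probe sequences show how far the probes of a gene are independent of each other. They are given 5′ to 3′ as on the array, and capitals mark the run of bases that a probe shares with the other probe of its gene or, for GAPDH and LOC100101232, with the opposite strand of each other's probe. LOC100101232 is a locus that the array describes as GAPDH.
HIF1A probe 466: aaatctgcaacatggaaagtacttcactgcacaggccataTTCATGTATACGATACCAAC
HIF1A probe 506: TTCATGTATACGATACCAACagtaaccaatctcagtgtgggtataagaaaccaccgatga
EPAS1 probe 287: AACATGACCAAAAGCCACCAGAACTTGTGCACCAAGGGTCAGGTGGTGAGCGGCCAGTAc
GAPDH probe 761: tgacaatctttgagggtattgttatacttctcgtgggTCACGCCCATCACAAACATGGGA
LOC100101232 probe 141: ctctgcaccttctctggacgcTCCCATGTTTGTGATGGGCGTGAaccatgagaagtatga
LDHA probe 849: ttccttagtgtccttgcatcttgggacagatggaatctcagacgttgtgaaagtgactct
The HIF1A probes overlap by 20 bases and otherwise read neighbouring stretches. The EPAS1 probes share 59 of 60 bases and the GAPDH-named probes share 57, so in each of these genes the probes are close to repeat measurements of the same site. LDHA probe 849 is shown because its values varied most among the member probes of the fetal triclosan group, and it shares no run of 20 bases with the other LDHA probe. The GAPDH-named probes read the other strand from the locus described as GAPDH: the reverse complement of GAPDH probe 761 shares 23 bases in a row with LOC100101232 probe 141, and of the 39 bases that then lie side by side 3 differ. Which transcript the GAPDH-named probes read is therefore uncertain. The genome positions of the probes are not given, since no build is named for the files.

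All 13 member probes were well above background on all 13 arrays, so every member entered the test. The arrays differed before any gene was considered. The median processed signal was 315 to 380 on the fetal vehicle arrays and 236 to 307 on the fetal triclosan arrays, with no overlap, and 83.3% to 90.1% of spots were well above background. After scaling, the direct difference over all probes still ran with brightness, from a median of -0.29 in the dimmest of 10 equal classes of probes to 0.24 in the brightest. Fetal triclosan replicate 4 lay alone on slide 4 with a scan day of its own. Of the 13 arrays kept, those numbered 1 to 3 in each group lay on slides 1 to 3, and fetal vehicle replicate 4 lay on slide 3. Direct differences within slide 3 thus set 1 triclosan array against the mean of 2 vehicle arrays. The part of signal level and slide in the results was not tested.

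**Figure D1:**
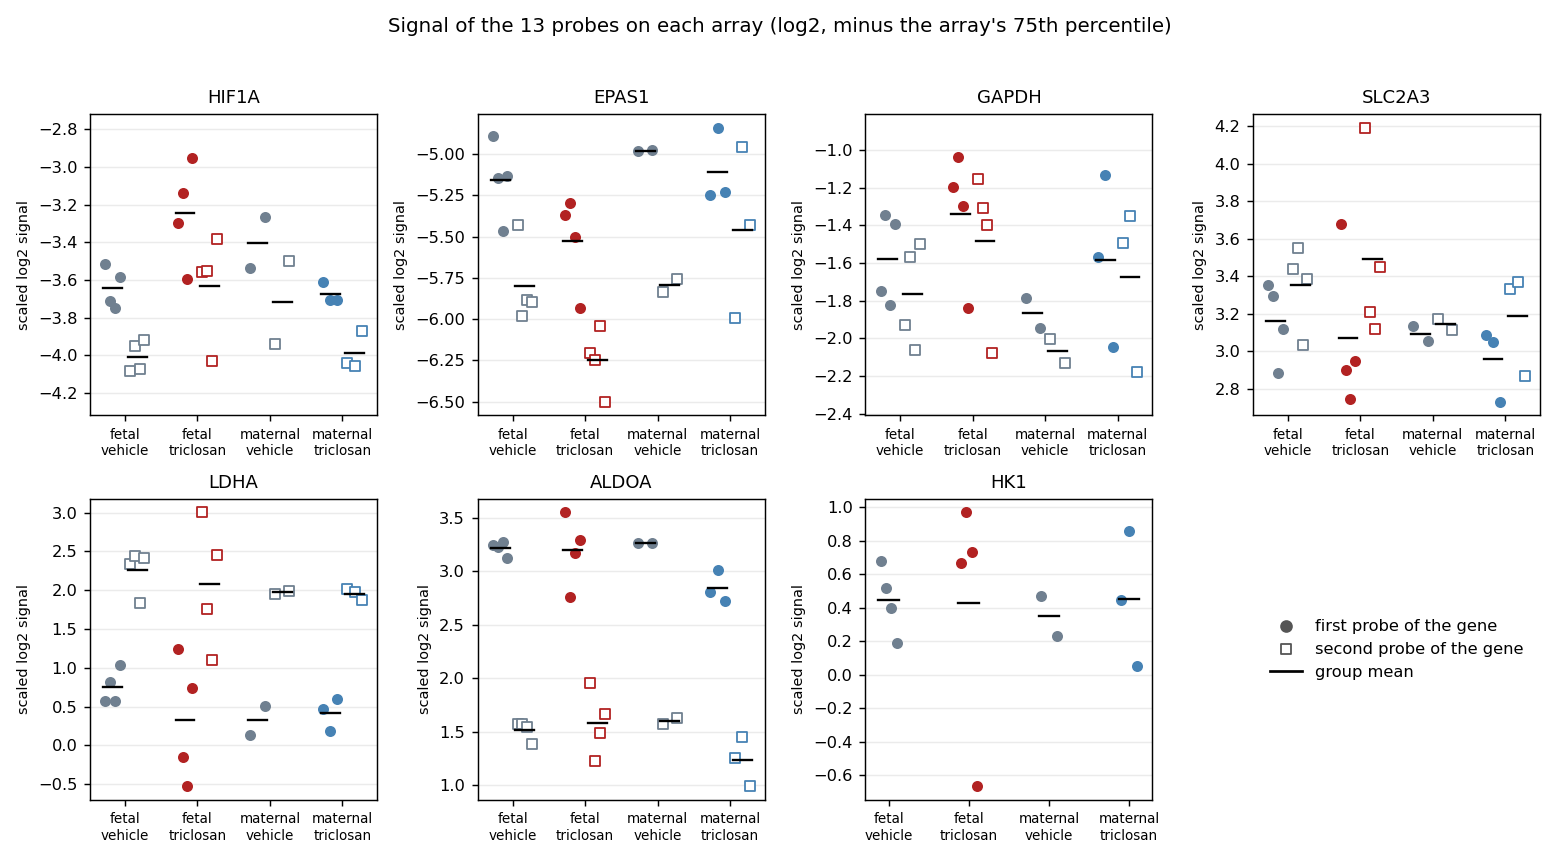
The panels show the scaled log2 signal of each gene on each of the 13 arrays, in 4 groups, with the first probe of the gene as filled circles, the second as open squares and group means as bars. The vertical axes differ between genes. EPAS1 probe 287 is the only probe whose fetal triclosan and fetal vehicle arrays do not overlap, the former all lying lower, and the LDHA and HK1 panels show a wider scatter in the fetal triclosan group than in the fetal vehicle group.

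Direct infusion of the fetus left none of the member probes past the threshold. In limma's moderated test with Benjamini-Hochberg adjustment over 13740 probes, 0 of 13 member probes had an adjusted p under 0.05, where 18.1% of all probes did. At an unadjusted p under 0.05 there were 2 of 13, both of HIF1A, against 33.1% of all probes. The groups did not overlap for 1 of 13, against 21.9% of all probes. Member differences ran from -0.45 for EPAS1 to 0.40 for HIF1A, with standard errors of 0.14 to 0.33, and their median was -0.02 against -0.09 over all probes. Probes of the same brightness class had a median direct difference of 0.24 for both SLC2A3 probes, ALDOA probe 782 and LDHA probe 849. That median was 0.11 for ALDOA probe 829, 0.05 for HK1 and LDHA probe 392, and -0.14 for the GAPDH-named probes. For the HIF1A and EPAS1 probes it was -0.28 to -0.26. Whether members differed from probes of their own brightness was not tested.

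Infusion of the ewe also left none past it. In limma's test 0 of 13 were called, where 0% of all probes were, and at an unadjusted p under 0.05 there were 0 of 13 against 9.64%. Groups of 3 and 2 arrays did not overlap for 3 of 13 member probes, HIF1A probe 466 and both ALDOA probes, each lower with triclosan, against 39.1% of all probes. Differences ran from -0.42 for ALDOA to 0.39 for GAPDH. In a test of the direct minus the indirect difference 0 of 13 were called, where 0% of all probes were, and 3 of 13 had an unadjusted p under 0.05 against 14.7%: both HIF1A probes and EPAS1 probe 287. Between the vehicle groups, maternal minus fetal, 0 of 13 were called against 0%, 0 of 13 had an unadjusted p under 0.05 against 3.27%, and 1 of 13 did not overlap against 17.2%. That probe was LDHA probe 392, lower in the maternal vehicle group by a difference of -0.42 (95% interval -1.29 to 0.45), as 7.85% of all probes were without overlap.

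**Figure D2:**
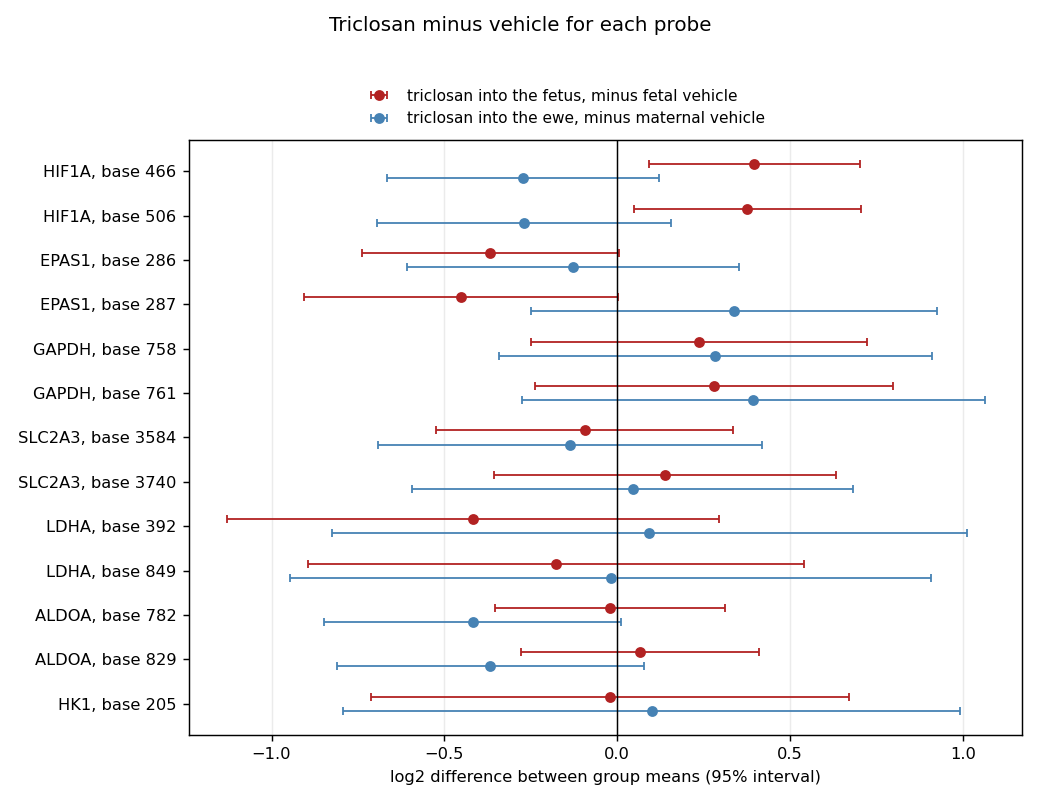
Each of the 13 probes is shown with its log2 difference between triclosan and vehicle and the 95% interval from limma, red for infusion into the fetus (n = 4 against 4) and blue for infusion into the ewe (n = 3 against 2). The red intervals of the HIF1A probes, 0.09 to 0.70 and 0.05 to 0.71, lie above 0 before adjustment, and every other interval includes 0.

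HIF1A, the hypoxia-inducible subunit made in most cells, had higher signal on the fetal triclosan arrays with both probes, short of the threshold. HIF1A probe 466 read -3.52, -3.71, -3.75 and -3.59 on fetal vehicle arrays 1 to 4, and -3.30, -3.14, -3.59 and -2.95 on fetal triclosan arrays 1 to 4. Of the fetal triclosan arrays, 3 lay above every vehicle array and replicate 3 lay inside the vehicle range. The means were -3.64 ± 0.11 (SD, n = 4) with vehicle and -3.24 ± 0.27 (SD, n = 4) with triclosan, a difference of 0.40 (SE 0.14) or 1.32-fold (95% interval 1.07 to 1.63), with a limma adjusted p of 0.070. HIF1A probe 506 read -4.09, -3.95, -4.07 and -3.92 with vehicle and -3.56, -3.55, -4.03 and -3.38 with triclosan. Replicate 3 was again the array inside the vehicle range, and the difference was 0.38 (SE 0.15, limma adjusted p = 0.104). Probes of the same brightness class had a median direct difference of -0.28 for probe 466 and -0.26 for probe 506, so HIF1A lay on the other side of 0 from most probes of its level.

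The HIF1A call depended on the arrays and the scaling. Without fetal triclosan replicate 3 the differences were 0.51 and 0.51, with limma adjusted p of 0.016 and 0.019. Subtracting each array's median in place of its 75th percentile gave 0.62 and 0.60, with limma adjusted p of 0.022 and 0.032 and shifted the all-probe median direct difference to 0.13. That scaling also turned the split of all direct calls from 935 higher and 1555 lower to 2174 higher and 946 lower. Within slides, the difference of probe 466 was 0.22 on slide 1, 0.57 on slide 2 and 0.08 on slide 3, and that of probe 506 was 0.53, 0.40 and -0.03. Fetal triclosan replicate 4, the highest array for both probes, had no vehicle array on its slide, and with slide as a block the differences were 0.27 and 0.28.

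In the indirect arm HIF1A was on the low side. HIF1A probe 466 read -3.54 and -3.27 on the maternal vehicle arrays and -3.61, -3.71 and -3.71 on the maternal triclosan arrays, a difference of -0.27 (95% interval -0.66 to 0.12, limma adjusted p = 0.624). HIF1A probe 506 read -3.94 and -3.50 with vehicle and -4.04, -4.05 and -3.87 with triclosan, also a difference of -0.27 (95% interval -0.70 to 0.15). The maternal triclosan arrays of probe 466 lay below both vehicle arrays, while those of probe 506 overlapped them, and maternal vehicle replicate 2 was the highest array of the arm for both. Without that array the indirect differences were -0.14 and -0.05. The direct difference exceeded the indirect by 0.67 (SE 0.23) for probe 466 and by 0.65 (SE 0.25) for probe 506, with limma adjusted p of 0.267 and 0.291. Over the settings tried that excess stayed between 0.43 and 0.91, and its lowest limma adjusted p was 0.095.

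EPAS1, the factor also known as HIF2A and typical of endothelium, had lower signal on the fetal triclosan arrays, also short of the threshold. EPAS1 probe 287 read -5.43, -5.98, -5.88 and -5.90 on fetal vehicle arrays 1 to 4, and -6.21, -6.25, -6.04 and -6.50 on fetal triclosan arrays 1 to 4. Every triclosan array lay below every vehicle array, as for 12.6% of all probes, and the difference was -0.45 (SE 0.21, 95% interval -0.91 to 0.00, limma adjusted p = 0.153). EPAS1 probe 286 read -4.89, -5.14, -5.46 and -5.14 with vehicle and -5.37, -5.30, -5.50 and -5.93 with triclosan, a difference of -0.37 (SE 0.17, limma adjusted p = 0.156) with overlapping groups. Probes of that brightness class had a median direct difference of -0.27.

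The EPAS1 spots were faint, with processed signals of 15.3 to 47.9 units for probe 287 and 22.8 to 61.9 for probe 286 over the 13 arrays. Their direct difference depended on how background was removed: with normexp correction it was 0.07 and 0.06, on the other side of 0, and in the authors' deposited values -0.15 and -0.07. Within slides 1, 2 and 3 it was -0.78, -0.27 and -0.15 for probe 287 and -0.48, -0.15 and -0.20 for probe 286. On the maternal arrays probe 287 read -5.83 and -5.76 with vehicle and -5.99, -4.96 and -5.43 with triclosan, and probe 286 read -4.98 and -4.98 with vehicle and -5.25, -4.84 and -5.23 with triclosan. Maternal triclosan replicate 2 was the highest array for both, and the indirect differences were 0.34 and -0.13, of opposite sign for probes that share all but 1 of their bases.

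**Figure D3:**
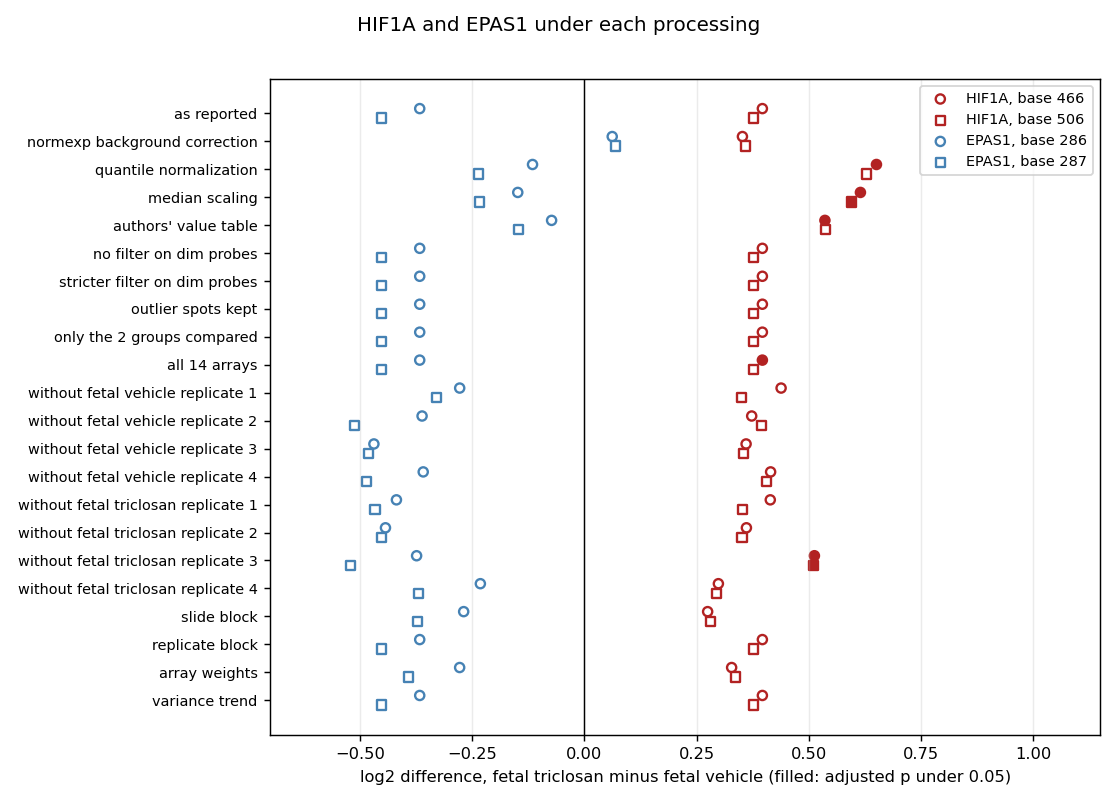
Each line is 1 way of processing, and the points are the direct log2 differences of the HIF1A probes (red) and the EPAS1 probes (blue), filled where the limma adjusted p was under 0.05; settings that leave out a maternal array are not drawn. HIF1A stays above 0 on every line, from 0.27 to 0.65, and EPAS1 crosses 0 with normexp background correction.

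Of the 13 listed hypoxia factors and their regulators 6 were measured, and ARNT2 alone was called in the direct arm, where 8.97% of the 903 named genes tested were called lower and 5.98% higher. ARNT2, a partner subunit prominent in neurons, fell by 0.77 (SE 0.20, limma adjusted p = 0.021). Its probe read -4.76, -4.87, -4.81 and -4.81 on the fetal vehicle arrays and -5.34, -5.81, -5.07 and -6.11 on the fetal triclosan arrays, which did not overlap. A further ARNT2 probe shifted by 1 base gave -0.54 (limma adjusted p = 0.051). Leaving out fetal vehicle replicate 1 or 3 or fetal triclosan replicate 2 ended the call, with adjusted p of 0.052 to 0.057 and differences of -0.77 to -0.69, and so did normexp correction, at -0.17, the authors' deposited values, at -0.32, and a fit of only the groups compared (adjusted p = 0.060). The other partner ARNT had a difference of -0.36, the antagonistic family member HIF3A -0.27 and CITED2, which competes with the hypoxia factors for their coactivators, -0.03, and none of these passed the test. The median over the 6 genes was -0.31 against -0.09 over all probes, and in the indirect arm 0 of 6 were called. The all-probe value is not matched for brightness. Probes in the brightness classes of EPAS1 probe 286 and HIF1A probe 466 had median direct differences of -0.27 and -0.28. Whether the 6 genes fell below probes of their own brightness was not tested.

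SLC2A3, the neuronal glucose transporter, showed no common direction. SLC2A3 probe 3584 read 3.35, 3.30, 2.88 and 3.12 on fetal vehicle arrays 1 to 4, and 3.68, 2.90, 2.75 and 2.95 on fetal triclosan arrays 1 to 4. SLC2A3 probe 3740 read 3.44, 3.55, 3.04 and 3.39 with vehicle and 4.19, 3.21, 3.12 and 3.45 with triclosan. Fetal triclosan replicate 1 was the highest of the fetal arrays for both probes, and the other triclosan arrays lay among or below the vehicle arrays. The direct differences were -0.09 (95% interval -0.52 to 0.34) and 0.14 (95% interval -0.36 to 0.63), and the indirect ones -0.14 (95% interval -0.69 to 0.42) and 0.04 (95% interval -0.59 to 0.68). On the maternal arrays probe 3740 read 3.17 and 3.12 with vehicle and 3.33, 3.37 and 2.87 with triclosan, so the triclosan arrays lay on both sides of the vehicle arrays.

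Other carriers of glucose and lactate measured under a current symbol were 3 of the 10 remaining listed genes. SLC16A1, a carrier of lactate and other monocarboxylates, had a direct difference of 0.50 (SE 0.18, limma adjusted p = 0.085) and an indirect one of 0.55 (limma adjusted p = 0.514). Leaving out maternal triclosan replicate 3 gave the same direct difference an adjusted p of 0.035, and median scaling gave 0.71 with 0.026. The fructose carrier SLC2A5 was at 0.30 and the liver-type glucose carrier SLC2A2 at 0.06, and neither passed the test except SLC2A5 under median scaling, at 0.52 with a limma adjusted p of 0.038. Under current symbols 4 members of the list were measured, SLC2A3 included, and 0 were called in either arm. Of named genes 5.98% were called higher and 8.97% lower in the direct arm, and 0% in the indirect.

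The probes that the array names GLUT-1 and GLUT8 matched no current symbol, so they were not counted with the list. These are common names of SLC2A1 and SLC2A8, which are both on the list, so its count of calls leaves them out. They are named here after their values were seen. GLUT-1, the name of the glucose transporter of the blood-brain barrier and of red cells, was lower after direct infusion. Its probe read 1.65, 1.32, 1.46 and 1.38 on fetal vehicle arrays 1 to 4 and 1.05, 0.81, 0.87 and 0.92 on fetal triclosan arrays 1 to 4, which did not overlap. The signal fell by 0.54 (SE 0.12, limma adjusted p = 0.012), and a further GLUT-1 probe shifted by 1 base fell by 0.52 (SE 0.15, limma adjusted p = 0.035). The first of these was called under 25 of 26 alternatives, the exception being median scaling, which gave -0.32 with a limma adjusted p of 0.090. In the indirect arm the difference of the first probe was -0.09, and that of the further probe was -0.33 (SE 0.20, limma adjusted p = 0.592). The direct minus the indirect difference was -0.45 (SE 0.19) and -0.19 (SE 0.25), with limma adjusted p of 0.325 and 0.723. GLUT8 was at -0.10 in the direct arm and -0.38 in the indirect, neither past the threshold.

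Markers of other cell types were read beside these values. Of 13 listed markers of endothelium and pericytes 4 were measured, and in the direct arm 2 were called lower, KDR and FLT1, against 8.97% of named genes, while TIE1, at 0.06, and PECAM1, at -0.26, did not pass the test. The FLT1 call was lost with normexp correction, at -0.04, and in the authors' deposited values, at -0.38. The summed level of the 4 markers, in units of each array's 75th percentile, was 0.650 to 0.921 on fetal vehicle and 0.496 to 0.715 on fetal triclosan arrays. It was 0.840 to 0.870 and 0.742 to 0.813 on the maternal vehicle and maternal triclosan arrays. A sum adds signals of different probes and follows mainly the brightest. KDR and FLT1 averaged -3.16 and -6.01 on the log2 scale on the fetal vehicle arrays, so TIE1 and PECAM1 made up most of this sum. Of 9 erythroid markers 3 were measured, HBB, AHSP and CA1, and 1 was called higher in the direct arm against 5.98% of named genes: AHSP, by 1 of 2 probes, at 0.94 (limma adjusted p = 0.038). The summed erythroid level lay between 4.28 and 12.5 on fetal vehicle arrays and between 11.8 and 23.4 on those of infused fetuses, and went from 3.28 to 8.90 without and from 10.5 to 26.8 with triclosan in the ewe. Of 16 hypothalamic neuropeptide genes 10 were measured, with 0 called in either arm. In the direct arm 5 had an unadjusted p under 0.05 in limma's test, against 33.1% of all probes, and the median difference was 0.98. All 10 lay above 0, and their summed level was 9.19 to 19.8 with fetal vehicle against 9.50 to 56.1 on fetal triclosan arrays. The indirect arm also had 10 of 10 above 0, with a median of 1.06 and 4 at an unadjusted p under 0.05, against 9.64% of all probes. Their summed level there was 11.2 to 16.0 on maternal vehicle arrays and 25.0 to 34.8 on maternal triclosan arrays. The astrocyte list had 1 of 4 called lower (FGFR3), the microglia and leukocyte list 1 of 3 lower (ITGAM), and the meninges and connective tissue list 1 of 5 higher (PTGDS). The choroid plexus and pituitary lists had 0 of 2 and 0 of 5 called, and the lists of general neuron and oligodendrocyte markers had 0 measured. The part of these cell types in the results was not tested. In whole tissue, fewer cells of a type and less RNA per cell cannot be told apart.

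The glycolytic enzymes showed no shared shift. Of 21 listed enzymes 7 were measured, and in the direct arm 0 were higher and 1, ENO3, was lower, against 5.98% and 8.97% of named genes. The median was -0.02 in the direct arm and 0.10 in the indirect arm, where 0 of 7 were called.

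HK1, the hexokinase that phosphorylates glucose on entry and the main form in brain, was read by 1 probe. HK1 probe 205 read 0.68, 0.52, 0.40 and 0.19 on fetal vehicle arrays 1 to 4, and 0.67, 0.97, 0.73 and -0.66 on fetal triclosan arrays 1 to 4. Of the triclosan arrays, 2 lay above the vehicle range, 1 inside it and replicate 4 below it. The difference was -0.02 (SE 0.32, 95% interval -0.71 to 0.67), and without replicate 4 it was 0.34. On the maternal arrays it read 0.47 and 0.23 with vehicle and 0.45, 0.86 and 0.05 with triclosan, which surround the vehicle values, with a difference of 0.10 (95% interval -0.79 to 0.99).

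ALDOA, the aldolase that splits fructose bisphosphate, gave the lowest indirect differences among the members. ALDOA probe 782 read 3.26 and 3.27 on the maternal vehicle arrays and 2.81, 3.01 and 2.72 on the maternal triclosan arrays. ALDOA probe 829 read 1.57 and 1.63 with vehicle and 1.26, 1.45 and 0.99 with triclosan. With both probes every maternal triclosan array lay below both vehicle arrays, as 19.1% of all probes did. The differences were -0.42 (95% interval -0.85 to 0.01) and -0.37 (95% interval -0.81 to 0.08), with limma adjusted p of 0.532 and 0.574 and unadjusted p of 0.056 and 0.097.

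In the direct arm the ALDOA groups overlapped with both probes. ALDOA probe 782 read 3.25, 3.23, 3.27 and 3.12 on fetal vehicle arrays 1 to 4 and 3.55, 2.76, 3.17 and 3.30 on fetal triclosan arrays 1 to 4, and ALDOA probe 829 read 1.57, 1.57, 1.55 and 1.38 with vehicle and 1.96, 1.23, 1.49 and 1.67 with triclosan. The triclosan arrays spread around the narrow vehicle range, with replicate 1 highest and replicate 2 lowest for both probes. The differences were -0.02 (95% interval -0.35 to 0.31) and 0.07 (95% interval -0.28 to 0.41). Probes of the same brightness class had a median direct difference of 0.24 for probe 782 and 0.11 for probe 829. The direct minus the indirect difference was 0.40 and 0.43, with limma adjusted p of 0.448 and 0.426.

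The GAPDH-named probes, whose strand is opposite to that of the locus described as GAPDH, lay on the high side in both arms without passing the test. GAPDH is the enzyme that oxidizes glyceraldehyde phosphate and is widely used as a reference gene. GAPDH probe 761 read -1.93, -1.57, -2.06 and -1.50 on fetal vehicle arrays 1 to 4, and -1.15, -1.31, -1.40 and -2.08 on fetal triclosan arrays 1 to 4. Of the triclosan arrays, 3 lay above every vehicle array and replicate 4 below every one, and the difference was 0.28 (95% interval -0.24 to 0.80). GAPDH probe 758 gave 0.24 (95% interval -0.25 to 0.72) with the same replicate lowest. On the maternal arrays probe 761 read -2.01 and -2.13 with vehicle and -1.49, -1.35 and -2.18 with triclosan, a difference of 0.39 (95% interval -0.28 to 1.06).

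Of the loci described as GAPDH, LOC100101232 lay below 0 in both arms, and LOC100134932 lay above 0 in the direct arm and below 0 in the indirect. LOC100101232 probe 141 had a direct difference of -0.07 (95% interval -0.35 to 0.21) and an indirect one of -0.21 (95% interval -0.57 to 0.15). LOC100101232 probe 140 was at -0.06 and -0.35, and LOC100134932 probe 187 at 0.16 and -0.20, with no call in either arm. Over the 13 arrays, GAPDH probe 761 correlated with HK1 at r = 0.63 and the LOC100101232 probes correlated with ALDOA probe 782 at 0.84 and 0.75, which describes arrays that share their scaling. Of 14 common reference genes 2 were tested: TBP was at 0.27 and PPIA at 0.34 in the direct arm (limma adjusted p 0.068 and 0.106), and at 0.05 and 0.05 in the indirect. TBP was called in the direct arm with median scaling (0.49), without fetal triclosan replicate 3, and with all 14 arrays. The last of these counts the mixed maternal vehicle replicate 3 as a separate array. PPIA was called with median scaling (0.52) and a variance trend, while quantile normalization put PPIA at -0.07.

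ENO3, the muscle-type enolase, was the only glycolytic enzyme called, and it fell by 0.74 (SE 0.21, limma adjusted p = 0.032) after direct infusion. It read -3.27, -3.07, -3.14 and -2.91 on fetal vehicle arrays 1 to 4, and -3.84, -4.42, -3.88 and -3.20 on fetal triclosan arrays 1 to 4. Replicate 4 with triclosan lay inside the vehicle range and the other 3 lay below it, and a further ENO3 probe shifted by 1 base fell by 0.69 (limma adjusted p = 0.028). The call was lost in 12 of 26 alternatives, with limma adjusted p up to 0.154 and no change of sign. These included leaving out any of the 4 fetal vehicle arrays or fetal triclosan replicate 1, 2 or 3, which gave -0.79 to -0.54 with adjusted p of 0.051 to 0.079. Normexp correction, quantile normalization, median scaling, the authors' deposited values and a fit of only the groups compared lost the ENO3 call too. Over all alternatives its difference lay between -0.95 and -0.38. The liver and red cell pyruvate kinase PKLR was at 0.00 (SE 0.28), not past the threshold.

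LDHA, the lactate dehydrogenase subunit that favours lactate, was scattered widely among the fetal triclosan arrays. LDHA probe 849 read 2.34, 2.44, 1.83 and 2.41 on fetal vehicle arrays 1 to 4, and 3.00, 1.76, 1.10 and 2.45 on fetal triclosan arrays 1 to 4. LDHA probe 392 read 0.57, 0.82, 0.57 and 1.03 with vehicle and 1.24, -0.14, -0.52 and 0.74 with triclosan. For both probes replicate 1 with triclosan was the highest of the fetal arrays and replicates 2 and 3 lay below the vehicle range, so the differences of -0.18 (95% interval -0.90 to 0.54) and -0.42 (95% interval -1.13 to 0.29) average opposite deviations.

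The same order of arrays came back with a further probe of the LDHA source cluster that carries no gene name. It read 4.10, 2.60, 2.40 and 3.25 on fetal triclosan arrays 1 to 4 and 2.92 to 3.49 on the fetal vehicle arrays. Over the 13 arrays it correlated with LDHA probe 849 at r = 0.94 and with LDHA probe 392 at 0.92, although it shares at most 6 bases in a row with either. Within slides, the difference of LDHA probe 849 was 0.67 on slide 1, -0.68 on slide 2 and -1.02 on slide 3. On the maternal arrays LDHA probe 849 read 1.95 and 1.99 with vehicle and 2.01, 1.97 and 1.87 with triclosan, a difference of -0.02 (95% interval -0.95 to 0.91), and LDHA probe 392 gave 0.09.

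Some other members were also more scattered among the fetal triclosan arrays. The SD of LDHA probe 849 was 0.28 over the fetal vehicle arrays and 0.83 over the fetal triclosan arrays, that of HK1 0.20 and 0.74, and that of ALDOA probe 782 0.07 and 0.33. Over all 13740 probes the median SD was 0.19 and 0.33, a median ratio of 1.56. The ratio was 2.90 for LDHA probe 849, 3.61 for HK1 and 4.96 for ALDOA probe 782, larger than in 80.0%, 87.1% and 93.7% of probes. Over the 13 member probes the ratio ran from 0.754 to 4.96. It was below the all-probe median for both EPAS1 probes, at 1.21 and 0.754, and for both GAPDH probes, at 1.44 and 1.49. The members did not share 1 order of arrays: replicate 1 was highest of the fetal triclosan arrays for LDHA, SLC2A3 and ALDOA, whereas replicate 4 was highest for HIF1A and lowest for EPAS1, GAPDH and HK1.

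**Figure D4:**
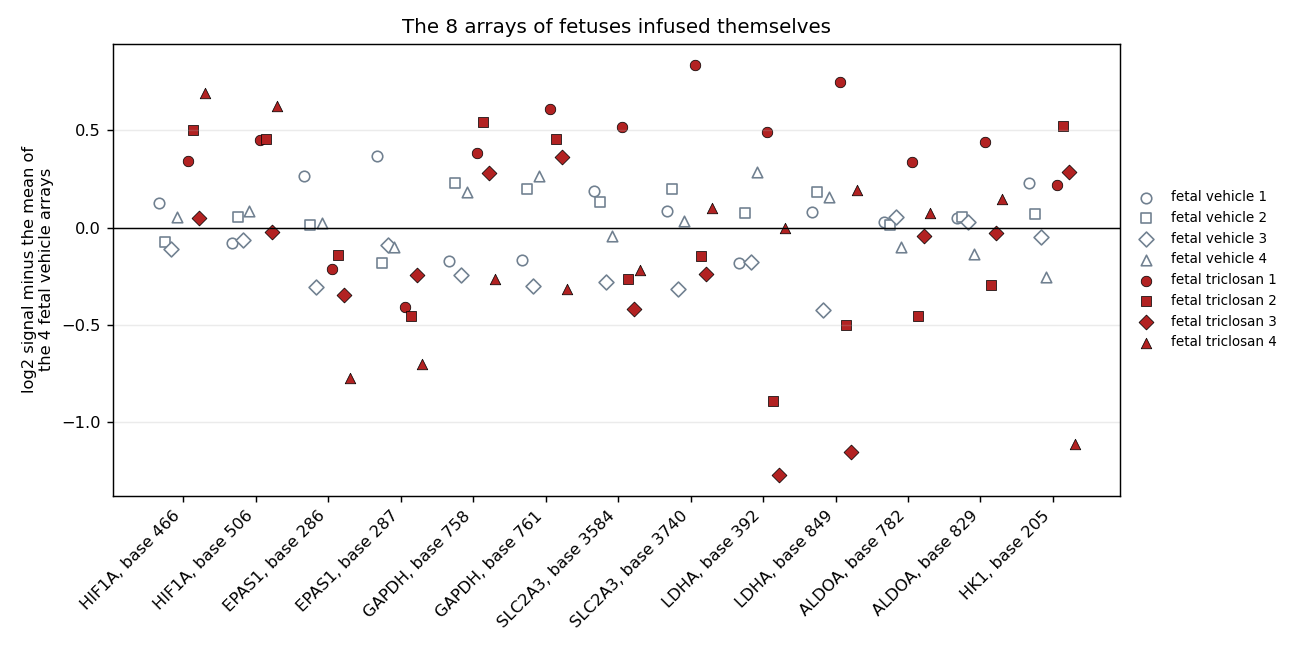
The log2 signal of the 8 arrays of the direct arm is plotted as a deviation from the mean of the 4 fetal vehicle arrays, with open symbols for vehicle, red for triclosan and 1 symbol shape per replicate number. Fetal triclosan replicate 1 (circle) lies at the top for SLC2A3, LDHA and ALDOA and replicate 3 (diamond) at the bottom for LDHA, while replicate 4 (triangle) is at the top for HIF1A and at the bottom for HK1.

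Relations among the members over the 13 arrays are given as a description, since the arrays share scaling and groups. After the 4 group means were removed, SLC2A3 probe 3740 went with LDHA probe 849 at r = 0.86 and with ALDOA probe 829 at 0.79, and GAPDH probe 758 with HK1 at 0.76. HIF1A probe 466 and EPAS1 probe 287 stood at r = -0.63 over the 13 arrays and at -0.25 after group means were removed. Of 881 other named genes, the gene most like HIF1A probe 466 in its values was SOD2, the mitochondrial superoxide dismutase, at r = 0.91, and the next was PPLBC at 0.86. The nearest to EPAS1 probe 286 were NRP2 (0.88) and GHR (0.85), to SLC2A3 probe 3740 CTNNBL1 (0.84) and NFKBIA (0.81), and to LDHA probe 849 SS18L2 (0.78) and IRAK4 (0.73). ALDOA probe 782 was nearest to CITED2 (0.86) and ATP6V1E1 (0.74), GAPDH probe 758 to RABL2B (0.89) and ATP5PD (0.81), and HK1 to YY1 (0.94) and LPAAT (0.89).

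Of 39 listed targets that hypoxia raises in many tissues 20 were measured, and in the direct arm 0 were higher and 3 lower, against 5.98% and 8.97% of named genes. The median over the 20 was -0.32, against -0.09 over all probes. The all-probe value is not matched for brightness. In the dimmest class of probes the median direct difference was -0.29, in the next classes -0.27, -0.26 and -0.28, and in the brightest 0.24. Whether the targets fell below probes of their own brightness was not tested. The 3 are genes of the vessel wall: the VEGF receptor KDR fell by 1.57 (SE 0.17, limma adjusted p = 0.0020), the VEGF receptor FLT1 fell by 1.19 (SE 0.25, limma adjusted p = 0.0097) and the TEK ligand ANGPT2 fell by 1.20 (SE 0.26, limma adjusted p = 0.012). KDR was called under all 26 alternatives and by 4 of 4 probes, whose sizes differed: -0.74, -0.77, -1.57 and -1.95. FLT1 was called by 1 of 2 probes, a faint one with a mean of -6.01 on the fetal vehicle arrays. That call was lost with normexp correction, at -0.04, and in the authors' deposited values. ANGPT2 was not called with quantile normalization, at -0.94 with an adjusted p of 0.052. The ligand VEGFA, named here outside the naming rule, was at -0.32 (SE 0.35), and MMP2, NOS3, TGFB3 and MMP9 were at -0.45, -0.41, -0.48 and -0.63 without a call. Without fetal triclosan replicate 3, NOS3 at -0.57 and TGFB3 at -0.71 had limma adjusted p of 0.025 and 0.043. In the indirect arm 0 of 20 were called, with KDR at -0.41 and TGFB3 at -0.95 (limma adjusted p 0.567 and 0.458). The KDR probes differed in sign there, at 0.09, 0.19, -0.41 and -0.70 in the order of the direct values above. Array weights brought TGFB3 to -1.14 with a limma adjusted p of 0.040. That setting called 2.97% of all probes in the indirect arm, against 0% as reported.

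Genes for the further use of glucose and pyruvate were called in neither arm, 0 of 8 measured from 25 listed, where 5.98% of named genes were called higher and 8.97% lower in the direct arm and 0% in the indirect. The liver glycogen phosphorylase PYGL was at -0.32 in the direct arm, the gluconeogenic enzymes PCK1 and G6PC1 at -0.68 and -0.33, and PGD of the pentose phosphate pathway at 0.08. Of 29 mitochondrial genes 3 were measured, and the coactivator PPARGC1A, a driver of mitochondrial gene expression, fell by 1.21 in the direct arm (SE 0.23, limma adjusted p = 0.0068), under all 26 alternatives too. IDH1 was at 0.16 and the cytochrome oxidase subunit COX5A at 0.00. In the indirect arm PPARGC1A was at -0.02, COX5A at -0.83 (SE 0.26, limma adjusted p = 0.436) and PCK1 at 1.66 (SE 0.76, limma adjusted p = 0.519). Array weights brought COX5A to -1.07 with a limma adjusted p of 0.042, in a setting that called 2.97% of all probes in that arm.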

How the data were processed

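Fluorescence was extracted with Agilent Feature Extraction 10.1.1.1, per the submitters' processing notes and the file headers. The deposited intensity column used, the processed signal, was background-corrected by that software, per the file headers. Its log2, minus each array's 75th percentile, was computed here; outlier spots were dropped, spots of a probe averaged, and probes well above background on at least 3 of 13 arrays kept (13740 of 15008). The authors' deposited table holds log2 values with column medians of 8.78 to 8.80, on a normalization not stated; 12 of its 14 columns lay closest to their own array's scanner values, and it served as an alternative.

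Differences were tested with limma 3.58.1 (R 4.3.3): 1 mean per group, 4 groups sharing 1 spread (9 residual and 2.36 prior degrees of freedom), contrasts, eBayes, two-sided, Benjamini-Hochberg over all probes, threshold 0.05. Intervals are limma's 95% and unadjusted. A gene with several probes is represented by the probe of highest mean. On simulated data 118 of 200 probes changed by 1 on the log2 scale were recovered, with 8 false calls. The simulated noise was independent and normal, with 1 SD per probe in all groups and no trend with brightness or slide. It therefore does not measure the error rate on these arrays.

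Symbols came from the array, updated through RefSeq tables: 1556 probes carried a name. The members and lists were chosen with earlier results of these data known. Named were all members, every measured gene of the glycolysis, transport, hypoxia factor and reference lists, and in the other pathway lists the called genes and up to 4 of lowest p. A gene of these lists is not reported here. Alternatives covered background, scaling, filter, outliers, arrays, slide, replicate number, array weights and variance trend. The same alternatives for the genes of the pathway lists were added after the data were seen.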

Additional observations from a re-analysis of the deposited data

Results flagged for a closer look

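In 2 of the 26 groups of 4 arrays that were examined among the member probes, the lowest array stood apart from the other 3 by more than Dixon's criterion allows at the 95% level, which compares the gap with the group's range. For LDHA probe 849, fetal vehicle replicate 3 read 1.83 where the next array read 2.34, a gap of 0.835 of the range. For ALDOA probe 829, fetal vehicle replicate 4 read 1.38 where the next array read 1.55, a gap of 0.864 of the range. Chance marks about 1 in 20 groups.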

How the results depend on the processing

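The direct count of member probes called was 0 of 13 as reported. It became 1 with quantile normalization, 2 with median scaling, 1 with the authors' deposited values and 1 with all 14 arrays. The fit of all 14 counts maternal vehicle replicate 3, the mixture of replicates 1 and 2, as a separate array. In it the direct difference of HIF1A probe 466 was unchanged at 0.40. Leaving out 1 array at a time gave 0 to 2, the 2 without fetal triclosan replicate 3. All these calls were of HIF1A. The counts for the indirect arm, the difference between arms and the vehicle groups were 0 under every alternative run. Of 1339 single probe values under an alternative, 1242 kept their sign and side of the threshold, 90 changed sign without a call, 7 became called and 0 reversed a call. Over all probes the direct calls numbered 2490 as reported, 1750 with normexp, 1733 with quantile normalization, 3120 with median scaling, 1339 with only the 2 groups compared, 1654 without fetal vehicle replicate 1 and 1223 without fetal vehicle replicate 3. Replicate numbers 1 to 3 coincided with slides 1 to 3, and deviations of same-numbered fetal triclosan and fetal vehicle arrays correlated at 0.13, 0.12 and 0.26 there and at -0.17 for number 4, whose arrays lay on different slides. Not every array correlated best with its own number, so the numbers were not taken as a pairing of animals. When replicate number entered as a block, 0 members were called, the direct calls over all probes numbered 2824 (2972 with slide as the block), and HIF1A probe 466 stayed at 0.40 in the direct arm. Precision is limited by groups of 2 to 4 arrays, and among the members for EPAS1 by faint spots. Outside the members, FLT1 and ARNT2, which were called in the direct arm, were also dim, at means of -6.01 and -4.81 on the fetal vehicle arrays. Both calls were lost with normexp correction.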
